A study of Mus musculus with 15 samples.

Results

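Arhgef3, Mdm1, Pcdh17, Cables1 and Spats2l were described as genes whose transcripts differed from 0 h after dexamethasone mainly in AtT-20 cells and little in 3134 cells. They were listed by name because earlier results of the same arrays showed this pattern, so their differences from 0 h, and the contrast of those differences between the lines, are given here as descriptions without a test. All 5 of 5 had values and were bright enough to be tested, among 9926 tested genes of 15039 with a value. They were covered by 79 exon probesets, which are small groups of probes on 1 exon or part of one: 15 for Arhgef3, 18 for Mdm1, 8 for Pcdh17, 13 for Cables1 and 25 for Spats2l. The platform annotation lists Spats2l under the older symbol 2810022L02Rik.

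RNA was measured on 15 Affymetrix mouse exon arrays. AtT-20 cells are a mouse corticotroph line, from the anterior pituitary of strain LAF1. The 3134 line came from C127 cells, which trace back to a mammary adenocarcinoma of an RIII mouse, by transformation. Each is an established line grown as a single cell type in culture, and both had been kept in charcoal-stripped serum for 48 h, which removes most steroid, before 100 nM dexamethasone was added for 2, 4 or 8 h. Cells at 0 h were the control, called untreated in 1 label and vehicle treated in another, and no group was kept for 2, 4 or 8 h without hormone, so effects of hormone and of time in culture cannot be told apart. There were 2 arrays per group, and 1 for AtT-20 at 8 h. Within each line the arrays fell into a pair of runs by the serial numbers in their titles, with 1 array of every group in each run and the lone 8 h array in run 1. The serial numbers of run 2 differ between the lines, so the run was fitted as a block within each line. Nothing in the labels marks the replicates as separate cultures. P-values here measure the spread between arrays, and that spread may be technical.

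Levels are log2 array signals, the median over a gene's probesets after quantile normalization of the 15 arrays. A level of 6.59, the 40th percentile of all values, was required in at least 1 group for testing, and levels below it are called dim here. A level of 1 gene cannot be set against that of another, since probes differ in brightness. The lines matched their labels in part. Of 8 corticotroph markers with a value, 8 reached 6.59 in AtT-20 at 0 h (7.19 to 13.23) and 0 did in 3134, and 0 of 5 markers of other pituitary cell types did in either line. Of 6 mammary epithelial markers, 1 reached it in 3134 (Krt8, 6.77) and 2 in AtT-20 (Krt8 at 11.68 and Krt18 at 9.97), while Epcam, Cdh1 and Elf5 were dim in both. Of 6 mesenchymal markers 5 reached it in 3134, with Vim at 13.22, and 1 in AtT-20. Immune markers reached it for 0 of 4 in AtT-20 and 1 of 4 in 3134, and endothelial markers for 0 of 3 and 1 of 3. Of the 17 tested genes on these marker lists, the only one called in either response to dexamethasone was Pdgfrb, in 3134 (-0.93 ± 0.164, limma adjusted p = 0.00949). With the run as a block, Scg2 passed in 3134 too (adjusted p = 0.0113). Single markers were not followed through the other alternatives.

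Dexamethasone is a synthetic glucocorticoid. It binds the glucocorticoid receptor, a transcription factor that moves to the nucleus and binds DNA at response elements near or far from the genes it controls, and the elements it can reach differ between cell types. In corticotrophs, glucocorticoids restrain the hormone axis that these cells drive. The 5 genes act in separate parts of the cell. Arhgef3 encodes a guanine nucleotide exchange factor. Mdm1 encodes a microtubule-binding protein of centrioles that restrains their duplication. Pcdh17 encodes a non-clustered protocadherin, an adhesion protein that recruits actin regulators to cell contacts. Cables1 encodes an adaptor between cyclin-dependent kinases and tyrosine kinases, with a role as a brake on the cell cycle. Spats2l encodes a protein of stress granules and the nucleolus.

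Promoter sequences were taken from RefSeq (GRCm38.p6) as the 250 bases before each listed transcription start. Arhgef3 is listed with 4 starts, Mdm1, Pcdh17 and Spats2l with 1 each, and Cables1 is not in the table. The windows of Arhgef3 are printed because its probesets passed a test of unequal movement. That call did not hold in every fit, as described further on. The window of Pcdh17 is set beside them. Pcdh17 is the other gene that stood below its 3134 level at 0 h and had higher AtT-20 levels after hormone, with 1 listed start. Capitals mark a match to AGAACA or its reverse complement TGTTCT, the hexamer that makes up each arm of a glucocorticoid response element.
Arhgef3 start 1, chr14:27143743-27143992, + strand: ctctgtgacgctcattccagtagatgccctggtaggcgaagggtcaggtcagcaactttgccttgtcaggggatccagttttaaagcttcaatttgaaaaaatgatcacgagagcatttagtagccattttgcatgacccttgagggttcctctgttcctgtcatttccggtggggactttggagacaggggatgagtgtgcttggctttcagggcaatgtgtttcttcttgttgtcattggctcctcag
Arhgef3 start 2, chr14:27237760-27238009, + strand: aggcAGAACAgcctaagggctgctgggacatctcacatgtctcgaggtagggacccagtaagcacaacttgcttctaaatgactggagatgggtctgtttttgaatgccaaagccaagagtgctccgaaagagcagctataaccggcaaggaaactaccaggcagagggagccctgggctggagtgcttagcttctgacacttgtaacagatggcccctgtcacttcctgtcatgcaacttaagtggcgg
Arhgef3 start 3, chr14:27335787-27336036, + strand: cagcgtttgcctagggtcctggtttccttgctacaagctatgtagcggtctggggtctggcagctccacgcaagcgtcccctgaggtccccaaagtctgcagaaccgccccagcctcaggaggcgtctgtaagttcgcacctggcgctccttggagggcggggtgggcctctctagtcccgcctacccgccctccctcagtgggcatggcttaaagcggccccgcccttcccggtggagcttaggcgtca
Arhgef3 start 4, chr14:27361139-27361388, + strand: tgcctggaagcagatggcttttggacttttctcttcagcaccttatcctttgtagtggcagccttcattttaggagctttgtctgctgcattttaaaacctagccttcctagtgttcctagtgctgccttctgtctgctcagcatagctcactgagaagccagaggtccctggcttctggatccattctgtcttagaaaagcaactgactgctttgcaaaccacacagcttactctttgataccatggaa
Pcdh17, chr14:84443313-84443562, + strand: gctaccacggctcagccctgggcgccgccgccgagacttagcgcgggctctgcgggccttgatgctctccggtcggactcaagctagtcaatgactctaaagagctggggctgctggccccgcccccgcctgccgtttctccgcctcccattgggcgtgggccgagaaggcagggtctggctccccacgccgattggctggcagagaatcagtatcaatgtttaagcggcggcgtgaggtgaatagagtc
The only match in these 5 windows lay at position -246 from the second listed start of Arhgef3, counting the base before the start as -1. The full element (AGAACA, any 3 bases, TGTTCT) and its inner core (ACA, any 3 bases, TGT), both searched on both strands, were in none of the windows of Arhgef3, Mdm1, Pcdh17 or Spats2l. Among 32851 promoter windows of the same length, 0.00913% held the full element, 5.84% the core and 16.1% the hexamer, with the full element's arms and core counted among the others. GC content was 48.4%, 52.4%, 64.8% and 46.4% in the Arhgef3 windows in the order printed and 64.8% in that of Pcdh17. A match is a description of these letters only, and receptor binding was not measured in these files.

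Arhgef3, the exchange factor, had the largest log2 difference from 0 h among the 5 in AtT-20. In AtT-20 its level was 5.70 and 5.77 at 0 h (run 1, then run 2), 8.57 and 8.31 at 2 h, 8.88 and 8.42 at 4 h, and 8.71 on the 8 h array. The 5 treated arrays lay far above both 0 h arrays and close to each other. Against 0 h the level was higher by 2.71 ± 0.243 (SE) at 2 h, 2.92 ± 0.243 at 4 h and 2.98 ± 0.298 at 8 h on the log2 scale, that is 6.52-fold, 7.56-fold and 7.87-fold. The 0 h level was dim, so background limits the size of these folds. In 3134, Arhgef3 stood at 7.29 and 6.90 at 0 h, 7.85 and 7.65 at 2 h, 7.56 and 7.53 at 4 h, and its 8 h arrays at 7.75 and 7.06. All 4 arrays at 2 and 4 h were above both 0 h arrays, while those at 8 h overlapped them. The mean of 2 and 4 h was higher than 0 h by 0.55 ± 0.21 in 3134 (95% interval 0.09 to 1.01) and by 2.81 ± 0.21 in AtT-20, so Arhgef3 is the member with a difference of some size in 3134 too.

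Mdm1, the centriole protein, was bright in both lines before hormone and higher in AtT-20 after it. Its AtT-20 level was 8.07 and 8.26 at 0 h, 10.00 and 10.38 at 2 h, 10.77 and 11.11 at 4 h, and 10.63 at 8 h. Within each run the order was 0 h, 2 h, 4 h from low to high, and the 8 h array lay below the 4 h array of its run. The differences from 0 h were 2.03 ± 0.179 at 2 h, 2.77 ± 0.179 at 4 h and 2.46 ± 0.22 at 8 h, which are 4.07-fold, 6.84-fold and 5.52-fold. In 3134 the 8 arrays spanned 7.72 to 8.08, with a median of 7.86. The mean of 2 and 4 h there differed from 0 h by 0.04 ± 0.155 (95% interval -0.30 to 0.38), against 2.40 ± 0.155 in AtT-20. Mdm1 was well above 6.59 on all 15 arrays, so neither its course in AtT-20 nor that in 3134 was limited by dimness.

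Pcdh17, the adhesion protein, ended in AtT-20 near the level it held throughout in 3134. Its AtT-20 levels were 5.80 and 6.09 at 0 h, 7.50 and 7.10 at 2 h, 8.16 and 7.61 at 4 h, and 7.81 at 8 h. All 5 treated arrays were above both 0 h arrays. The 3134 arrays ranged from 7.86 to 8.27 with a median of 7.99, and only the run 1 array at 4 h in AtT-20 fell inside that range. Against 0 h, the AtT-20 level was higher by 1.35 ± 0.206 at 2 h, 1.94 ± 0.206 at 4 h and 1.87 ± 0.253 at 8 h (2.56-fold, 3.84-fold and 3.65-fold). The AtT-20 level at 0 h was dim, which limits these folds. The run 1 arrays gave larger differences (1.69 at 2 h and 2.35 at 4 h) than the run 2 arrays (1.02 and 1.53). In 3134 the mean of 2 and 4 h differed from 0 h by 0.04 ± 0.179.

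Cables1, the kinase adaptor, was above 6.59 on all treated AtT-20 arrays and dim on every 3134 array. In AtT-20 the level was 7.17 and 6.41 at 0 h, 8.91 and 8.35 at 2 h, 9.23 and 8.62 at 4 h, and 8.81 at 8 h. The runs differed by more at 0 h than for the other members, but run 1 was the higher run at 0, 2 and 4 h alike. Compared within a run, the differences from 0 h were 1.74 and 1.94 at 2 h, 2.05 and 2.21 at 4 h, and 1.63 at 8 h. The fit over both runs gave 1.84 ± 0.347 at 2 h, 2.13 ± 0.347 at 4 h and 2.01 ± 0.425 at 8 h (3.58-fold, 4.38-fold and 4.04-fold), and 1.69 at 8 h with the run as a block. The 3134 levels ran from 4.00 to 4.98 over 8 arrays, and the mean of 2 and 4 h differed from 0 h by 0.14 ± 0.301. The median was dim in 3134, which limits what it can show there. Of the 13 probesets, 2 had group means of 6.59 or more in 3134 at 0 h. Probeset 5208874 was at 9.17 at 0 h and had a response of -0.01 in 3134 and 0.69 in AtT-20. Probeset 4515262 was at 6.60 and had responses of 0.11 and 0.95. Both moved less in AtT-20 than the gene median (1.99), so they do not settle whether Cables1 responded in 3134.

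Spats2l, the stress granule protein, was the member with lower levels after hormone. Its AtT-20 levels were 8.88 and 8.89 at 0 h, 8.65 and 8.48 at 2 h, 7.91 and 7.61 at 4 h, and 8.21 at 8 h. The 5 treated arrays were below both 0 h arrays, with the 4 h arrays lowest and the 8 h array between those of 2 and 4 h. The differences from 0 h were -0.32 ± 0.164 at 2 h, -1.13 ± 0.164 at 4 h and -0.67 ± 0.201 at 8 h, so the 4 h level was 0.458 of the 0 h level. In 3134 the gene was dim on all 8 arrays (4.90 to 5.18) and the mean of 2 and 4 h differed from 0 h by 0.04 ± 0.142. The dim median limits what could be seen there. Of the 25 probesets, 4 had group means above 6.59 in 3134 at 0 h. Probesets 5071090, 5214389 and 5454551 stood at 7.30, 7.19 and 7.56 at 0 h in 3134, with responses of 0.14, 0.26 and 0.01 there and of -0.28, -0.38 and -0.18 in AtT-20. The fourth, 5561727, had responses of -0.36 in 3134 and -0.05 in AtT-20, and its level followed the run as described further on. All 4 moved less in AtT-20 than the gene median (-0.72), so they do not settle whether Spats2l responded in 3134.

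**Figure D1:**
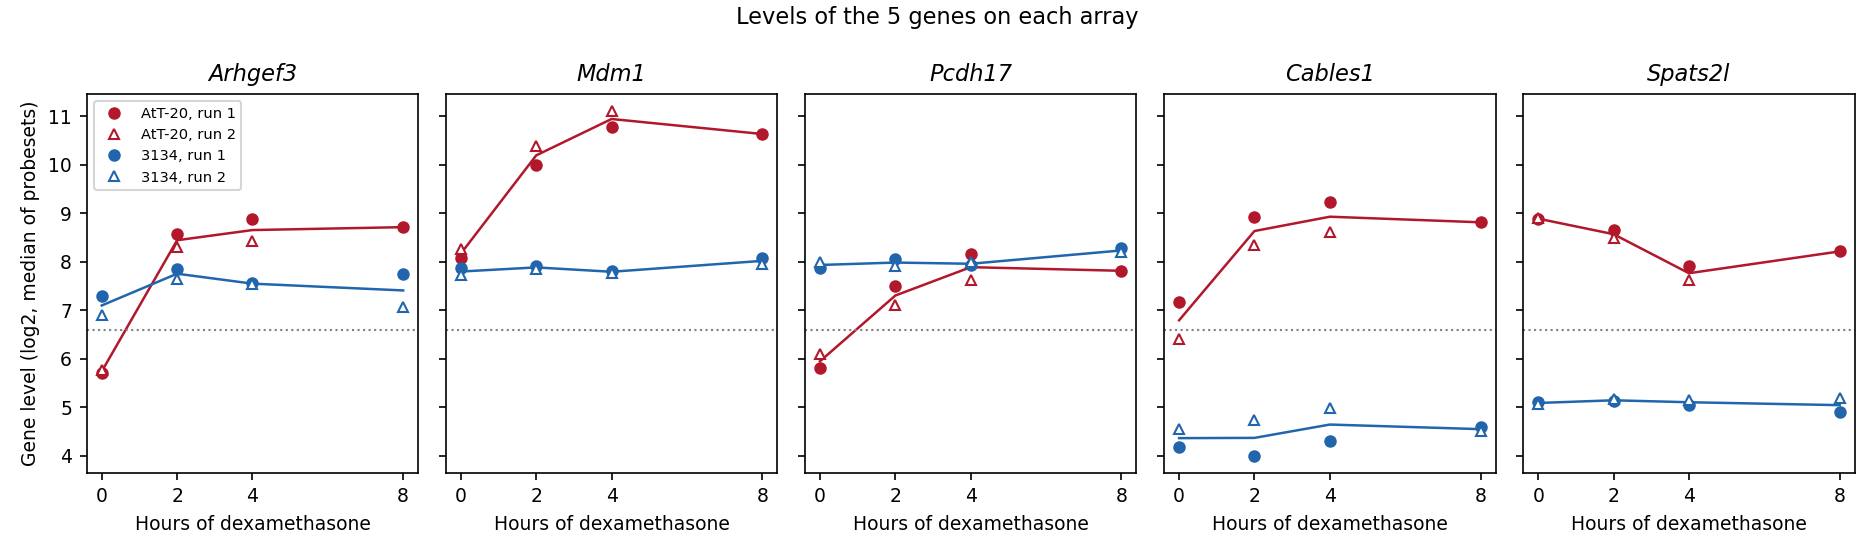
Log2 level (median over a gene's probesets) on each of the 15 arrays against hours of dexamethasone, for the 5 genes; filled circles are run 1, open triangles run 2, lines join group means, red is AtT-20 and blue 3134, and the dotted line marks 6.59. In AtT-20 Arhgef3, Mdm1, Pcdh17 and Cables1 stand higher on all treated arrays than at 0 h and Spats2l lower, while the 3134 arrays of Mdm1 span 7.72 to 8.08.

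The contrast of responses, AtT-20 minus 3134 for the mean of 2 and 4 h against 0 h, was 2.26 ± 0.298 for Arhgef3, 2.36 ± 0.22 for Mdm1, 1.61 ± 0.253 for Pcdh17, 1.85 ± 0.425 for Cables1 and -0.76 ± 0.201 for Spats2l. In all tested genes, limma called 0.645% in this contrast, 0.181% in the AtT-20 response and 2.08% in the 3134 response at an adjusted p under 0.05 (2.73%, 0.756% and 4.83% with the run as a block). The members were picked for differences of this kind, higher or lower, so their own standing among all genes is not a result. The 8 h array gave the same picture at gene level, with contrasts of 2.67 ± 0.384, 2.24 ± 0.283, 1.57 ± 0.326, 1.83 ± 0.549 and -0.63 ± 0.259 in the same order. These comparisons share the 0 h arrays of each line.

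Widely used glucocorticoid target genes served as a contrast. Fkbp5, a chaperone of the receptor, rose by 0.91 ± 0.134 in AtT-20 (limma adjusted p = 0.0182) and by 2.85 ± 0.134 in 3134 (adjusted p = 5.32e-07). Per1, a clock repressor, rose by 1.25 ± 0.153 (adjusted p = 0.00468) and 2.63 ± 0.153 (adjusted p = 2.46e-06). For both genes the response in AtT-20 was the smaller one, with a contrast of -1.95 ± 0.189 for Fkbp5 (adjusted p = 0.000543) and -1.38 ± 0.216 for Per1 (adjusted p = 0.0125). The AtT-20 call of Fkbp5 was lost without any 1 of the arrays at 0 h (adjusted p = 0.0793 and 0.322 without replicates 1 and 2) or 2 h (0.0813 and 0.075), and that of Per1 without 0 h replicate 2 (0.111). The Per1 contrast was lost without 3134 0 h replicate 1 (0.118) or 2 (0.0618) or AtT-20 0 h replicate 1 (0.0707). Tsc22d3, a leucine zipper protein, differed by 0.66 ± 0.286 in AtT-20 (adjusted p = 1) and rose by 2.59 ± 0.286 in 3134. The Tsc22d3 contrast was -1.92 ± 0.405 and did not pass (adjusted p = 0.0643). It passed with the run as a block (0.000748), with centred arrays (0.0445) and with the mean over probesets (0.00132). On the deposited scale without the block it did not. Sgk1, a kinase activated downstream of mTORC2, rose in both lines, by 1.87 ± 0.182 in AtT-20 and 2.27 ± 0.182 in 3134. Its contrast was -0.40 ± 0.258 (adjusted p = 1, 95% interval -0.97 to 0.16). The receptor gene Nr3c1 differed by -0.37 ± 0.145 in AtT-20 (adjusted p = 1) and fell by 0.83 in 3134 (adjusted p = 0.00949, but 0.102 and 0.165 without replicate 1 or 2 at 0 h). At 0 h Nr3c1 was lower in AtT-20 than in 3134 by a log2 difference of -1.50 ± 0.168 (limma adjusted p = 9.19e-06). In that comparison 54.5% of genes were called, and a link to the responses was not tested. On the response plot, Arhgef3, Mdm1, Cables1 and Pcdh17 lie on the other side of the line of equal response from Fkbp5, Per1 and Tsc22d3. The side on which Sgk1 lies turned with the summary, its contrast being 0.42 with the mean over probesets and 0.63 with the median over bright probesets.

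**Figure D2:**
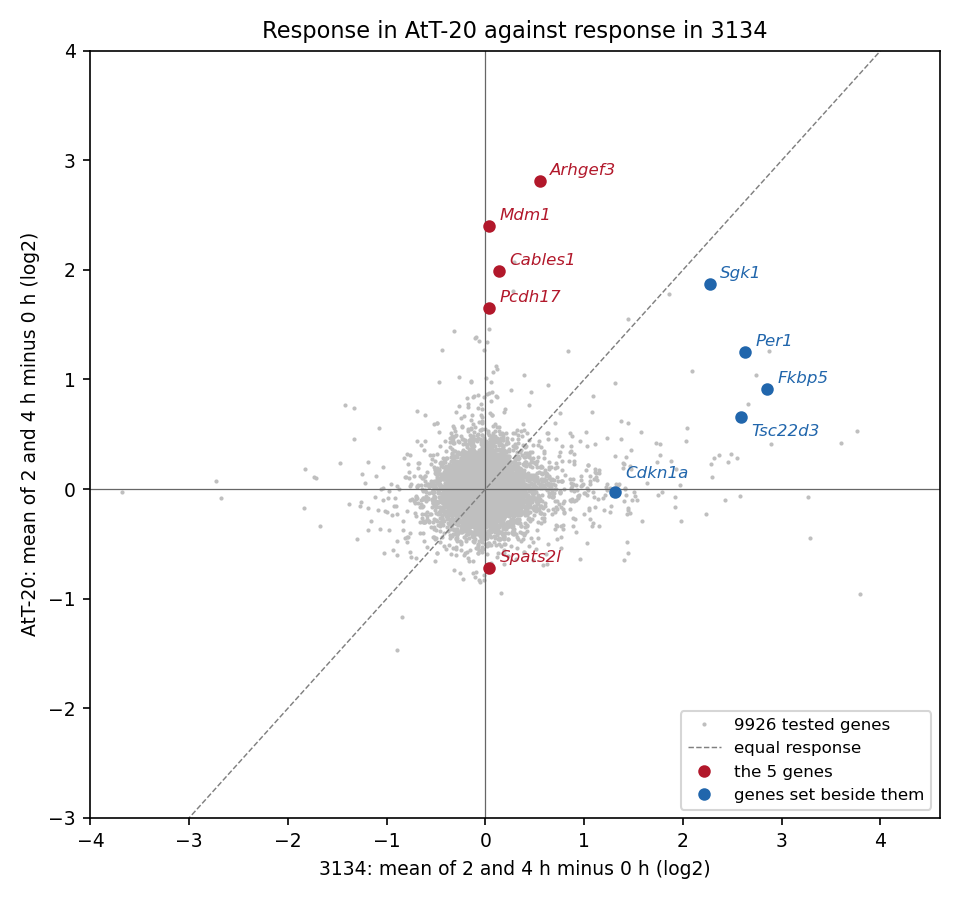
Response in AtT-20 (vertical axis) against response in 3134 (horizontal axis), each the mean of 2 and 4 h minus 0 h on the log2 scale, for 9926 tested genes (grey), the 5 genes (red) and 5 genes set beside them (blue); the dashed line marks equal responses. Arhgef3 lies at 2.81 in AtT-20 and 0.55 in 3134, Spats2l at -0.72 and 0.04, and Fkbp5 at 0.91 and 2.85.

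Whether the courses moved on after 2 h was tested without the 0 h arrays, in 2 arrays against 2. Between 2 and 4 h in AtT-20, Mdm1 was higher by 0.75 ± 0.179 (limma adjusted p = 1, or 0.105 with the run blocked) and Spats2l lower, with a difference of -0.80 ± 0.164 (adjusted p = 1, and 0.116 with the block). Neither passed. Arhgef3 differed by 0.21 ± 0.243, Cables1 by 0.29 ± 0.347 and Pcdh17 by 0.59 ± 0.206, each at an adjusted p of 1. In this comparison limma called 0 of 9926 genes (percent called 0), with 140 at an unadjusted p under 0.05 and 2 (0.0201%) called with the run as a block. Before any adjustment the 95% intervals were 0.36 to 1.14 for Mdm1 and -1.16 to -0.45 for Spats2l. The 5 genes were listed from earlier results of these same 2 and 4 h arrays. These intervals are therefore descriptions and do not show a later change. Between 2 and 8 h in 3134 none of the 5 passed, with differences from -0.34 ± 0.243 for Arhgef3 to 0.25 ± 0.206 for Pcdh17 and adjusted p from 0.845 to 0.988, while limma called 0.0907% of genes (1.98% with the block).

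Before hormone the lines differed for 4 of the 5 genes, and in both directions. This comparison is not the one the genes were chosen on, though it shares their 0 h arrays, and 54.5% of all tested genes were called in it (66.9% with the run as a block), so 4 of 5 is not read as a feature of these genes. Spats2l was higher in AtT-20 than in 3134 by 3.80 ± 0.164 (limma adjusted p = 2.37e-09) and Cables1 by 2.43 ± 0.347 (adjusted p = 7.88e-05), with all arrays of each line apart and the 3134 level dim. Pcdh17 was lower in AtT-20 by a log2 difference of -1.99 ± 0.206 (adjusted p = 4.87e-06) and Arhgef3 by -1.37 ± 0.243 (adjusted p = 0.000466), both from a dim AtT-20 level. On the deposited scale, without quantile normalization, the Arhgef3 difference was -1.56 and did not pass (adjusted p = 0.106). Mdm1 differed by 0.37 ± 0.179 (adjusted p = 0.104), and passed with the run as a block (adjusted p = 0.0187) and with the mean over probesets in place of the median. Side by side, Arhgef3 went from below its 3134 level at 0 h to above every 3134 array at 2 h, Mdm1 started near its 3134 level and moved away, Pcdh17 moved up to the 3134 level, and Cables1 and Spats2l were at higher levels in AtT-20 throughout.

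The single probesets show how evenly the differences were spread over the probesets of each gene. The genes were listed for their AtT-20 responses on these arrays, so the AtT-20 counts follow in part from that choice. In AtT-20 the mean of 2 and 4 h exceeded 0 h by more than 1 for 17 of 18 probesets of Mdm1, 13 of 15 of Arhgef3, 10 of 13 of Cables1 and 5 of 8 of Pcdh17. For Spats2l it was below 0 h for 23 of 25 probesets, with differences down to -1.15. In 3134 the response was above 1 for 0 probesets of any of the 5 genes. All 18 Mdm1 probesets and 13 of the 15 of Arhgef3 were higher in every same-run comparison of an AtT-20 treated array with its 0 h array, as were 12 of 13 of Cables1 and 6 of 8 of Pcdh17, and 12 of 25 of Spats2l were lower in each. The spread within a gene was wide: AtT-20 responses ran from -0.66 to 3.60 over the probesets of Arhgef3, 0.51 to 3.26 for Mdm1, 0.07 to 2.55 for Pcdh17 and -0.28 to 3.34 for Cables1. The lowest Arhgef3 and Cables1 probesets were dim in all 8 groups, and so carry little information. Where a probeset lies in its gene was not used here.

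**Figure D3:**
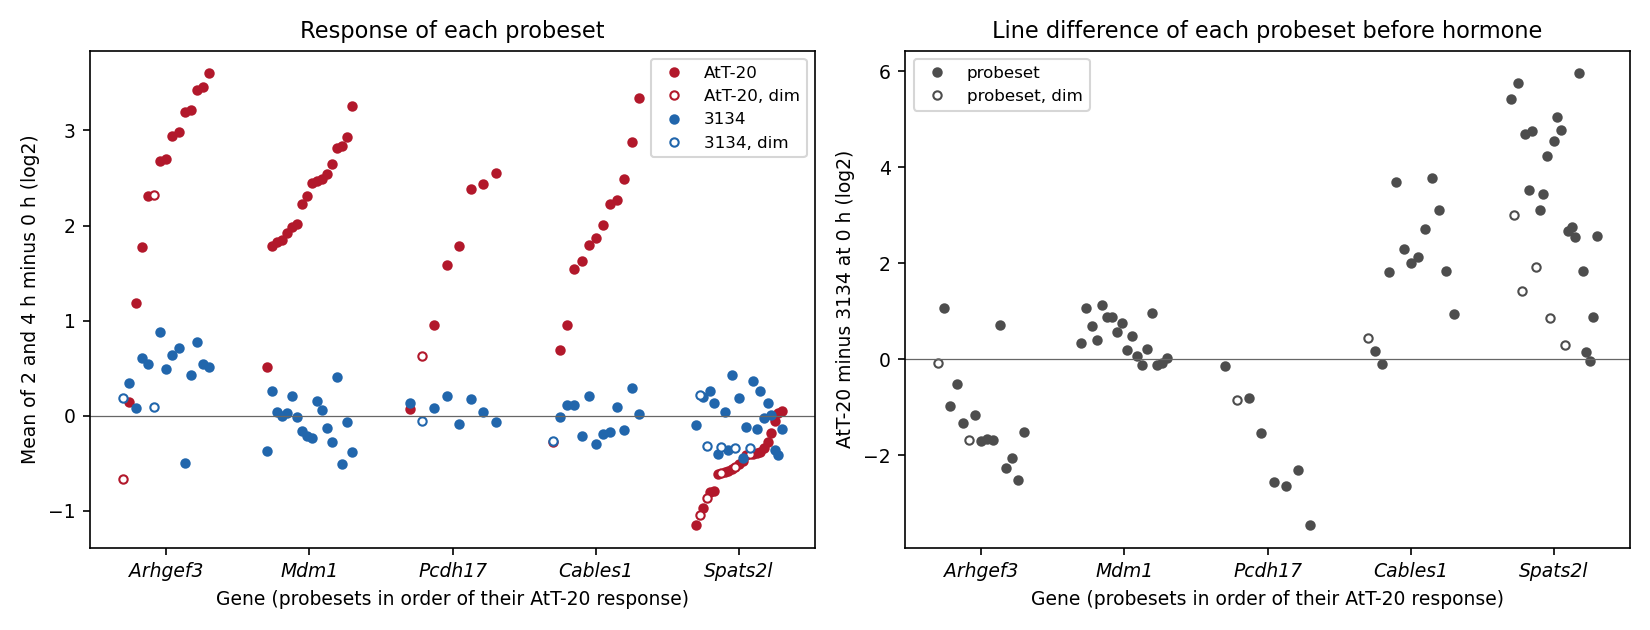
Left, the response (mean of 2 and 4 h minus 0 h, log2) of each of the 79 probesets in AtT-20 (red) and 3134 (blue); right, the difference AtT-20 minus 3134 at 0 h; open circles are probesets below 6.59 in all groups, and within each gene probesets stand in order of their AtT-20 response. Mdm1 probesets reach from 0.51 to 3.26 in AtT-20 with none above 1 in 3134, and line differences at 0 h run from -0.03 to 5.96 for Spats2l.

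Unequal movement of a gene's probesets in AtT-20 was tested with limma's diffSplice. It asks whether 1 probeset departs from the rest of its gene. Arhgef3 (Simes adjusted p = 5.59e-05), Mdm1 (0.00229) and Pcdh17 (0.0325) passed, and Cables1 and Spats2l did not (0.998 each), against 0.449% called among 12463 genes (4.27% with the run as a block). These 5 genes were listed for their AtT-20 responses, and a flat probeset departs further in a gene with a large response. Their calls are therefore not read as a finding beside the share of all genes. Among the genes set beside them Sgk1 passed (Simes adjusted p = 4.44e-07), and Fkbp5, Per1, Tsc22d3 and Nr3c1 did not. Per1 passed with the run as a block (0.000141, against 0.197 without it). The calls of Arhgef3, Mdm1 and Pcdh17 did not hold in every fit. diffSplice takes 1 spread for all probesets of a gene. An alternative added after these values were seen gave each probeset its own spread. It also set each probeset against the median of its gene's probesets on the same array. With it the adjusted p was 0.383 for Arhgef3, 0.226 for Mdm1 and 0.742 for Pcdh17, and 1 gene in all was called. Which of these changes lost the calls was not tested. On the deposited scale without the block the diffSplice adjusted p of each of these genes was 1. The Mdm1 call was also lost without AtT-20 0 h replicate 2 (adjusted p = 0.167). The Pcdh17 call was lost when any 1 of 5 AtT-20 arrays was left out: replicate 1 (adjusted p = 0.122) or 2 (0.0772) of 0 h, either array of 2 h (0.0803 and 0.15), or replicate 2 of 4 h (0.0875). It was lost too with arrays centred on their medians (0.0563) and without the filter on dim probesets (0.0802).

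In Arhgef3 the departing probeset was 5268677. On the AtT-20 arrays it stood at 8.14 and 8.58 at 0 h, 7.82 and 8.31 at 2 h, 9.50 and 8.42 at 4 h, and 7.55 at 8 h. It was thus bright at 0 h, when the group means of the other 12 tested probesets were between 3.63 and 6.89, and its treated arrays overlapped those at 0 h. Its AtT-20 response was 0.15, which is 2.64 below the rest of the gene (adjusted p = 5.48e-05, and 0.247 with own spreads). A second Arhgef3 probeset, 5515018, differed between the lines. In AtT-20 it was 6.86 and 5.56 at 0 h, 9.47 and 9.17 at 2 h, 9.90 and 9.07 at 4 h, and 9.31 at 8 h, while in 3134 its 8 arrays were dim, from 4.41 to 5.72. Of the other tested Arhgef3 probesets, 9 had group means above 6.59 in 3134 at 0 h, whereas the group mean of this one exceeded 6.59 in AtT-20 after hormone only. A test of unequal contrasts of responses among Arhgef3 probesets, added after these values were seen, gave an adjusted p of 0.169 (0.00338 with the run as a block, and 1 with own spreads), so an unequal contrast was not shown. The first of these called 0.0883% of genes and the fit with the block 1.47%. In the same test Pcdh17 passed with the block too (adjusted p = 0.00227). It did not pass without the block (0.998) or with own spreads and the block (0.807). Mdm1, Cables1 and Spats2l passed neither with nor without the block.

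**Figure D4:**
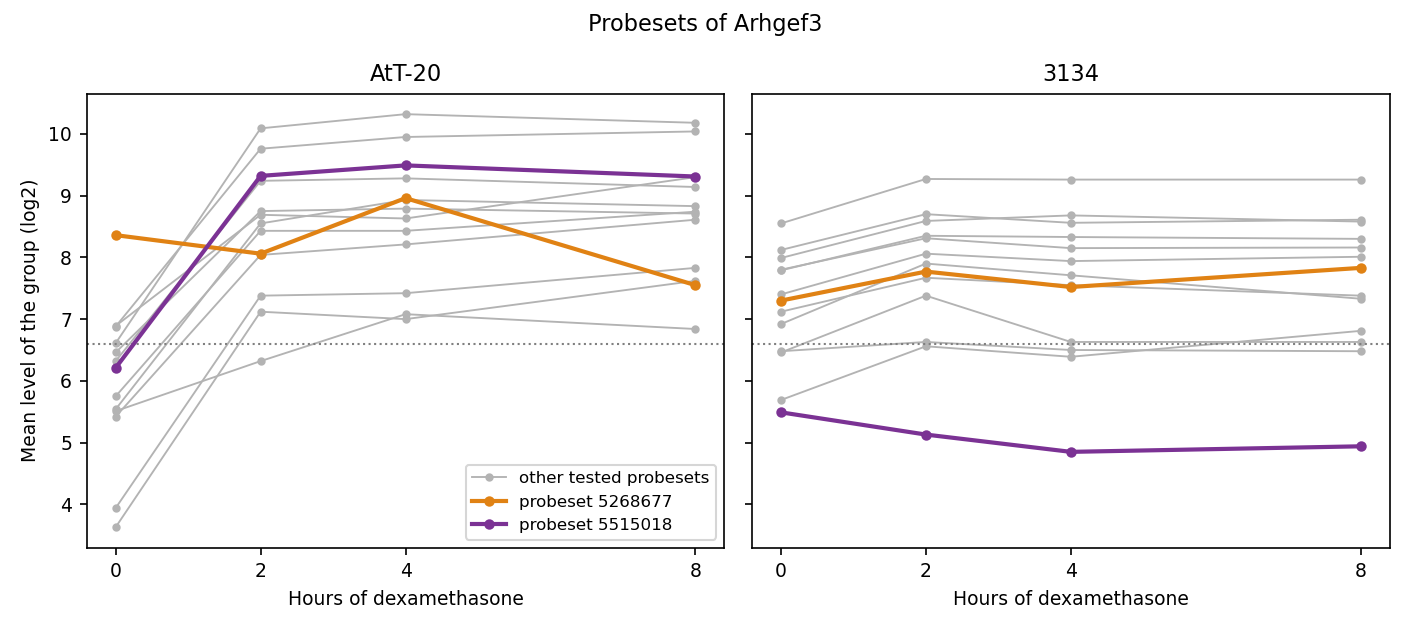
Group mean level (log2) of the 13 tested Arhgef3 probesets against hours of dexamethasone in AtT-20 (left) and 3134 (right); the dotted line marks 6.59. Probeset 5268677 (orange) is at 8.36 in AtT-20 at 0 h and 8.06 at 2 h, and probeset 5515018 (purple) goes from 6.21 to 9.32 there but stays between 4.85 and 5.49 in 3134.

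The other departing probesets differed in shape. Mdm1 probeset 4526061 was dim at 0 h in both lines, at 6.16 in AtT-20, and was 6.63, 6.72 and 7.06 at 2, 4 and 8 h. Its response of 0.51 was 1.86 below the rest of Mdm1 (adjusted p = 0.00144), and it was higher than 0 h in 5 of 5 same-run comparisons. Pcdh17 probeset 4578823 was by contrast the brightest of its gene and flat. It was 11.07 and 10.17 in AtT-20 at 0 h, 10.81 and 10.19 at 2 h, 11.38 and 10.37 at 4 h, and 11.47 at 8 h, and in 3134 it ran from 9.97 to 11.86. Run 1 was higher than run 2 for this probeset in each of the 7 groups with both runs.

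Probesets also differed in how far the lines stood apart at 0 h, in which 26.4% of 12463 genes were called by diffSplice (49.1% with the run as a block). Arhgef3 (Simes adjusted p = 9.86e-05), Spats2l (7.48e-05) and Pcdh17 (0.00155) passed, and did so with own spreads too (0.00929, 0.000422 and 0.0115). Cables1 did not (0.141) but passed with the block (0.000244) and with own spreads (0.0217), and Mdm1 did not (0.781). On the deposited scale without the block, Arhgef3 (0.43) and Pcdh17 (0.797) no longer passed, and Pcdh17 did not pass without 3134 0 h replicate 2 (0.158). The Arhgef3 probesets 5268677 and 5515018 were higher in AtT-20 than in 3134, by 1.06 and 0.72, while the gene's other 13 were lower. Against the rest of Arhgef3 they departed by 2.45 (adjusted p = 5.07e-05) and 2.08 (adjusted p = 0.000763). In Pcdh17, probeset 4578823 was level in the lines (-0.15), whereas 4392235 was lower in AtT-20, with a difference of -3.46.

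Spats2l was higher in AtT-20 at 24 of 25 probesets, by up to 5.96, but a few did not separate the lines. Probeset 5454551 was 7.46 and 7.97 in AtT-20 and 7.58 and 7.54 in 3134 at 0 h, a difference of 0.15 that departed by -3.45 from the rest of the gene (adjusted p = 7.6e-05). Probeset 5561727 differed by -0.03 and departed by -3.64 (adjusted p = 2.64e-05). It was bright on every array but followed the run: in both lines run 1 arrays were between 10.52 and 11.62 and run 2 arrays between 7.91 and 9.03. These bright probesets do not change the dim gene median of Spats2l in 3134, and 4561788 shows the opposite extreme, at 9.20 and 8.33 in AtT-20 against 2.37 and 3.25 in 3134. For Cables1, the probesets 5208874 and 4515262 were likewise near level between the lines at 0 h, with differences of 0.17 and -0.09, and had among the smallest AtT-20 responses of the gene, 0.69 and 0.95.

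The relatives and partners of the 5 genes gave few calls in AtT-20. The lists were made with earlier results of these arrays known and leave the 5 genes out. Arhgef3 binds and inhibits mTORC2, the kinase complex that activates Akt and Sgk1. Of 12 tested genes of that list, Sgk1 passed in AtT-20 and Sgk1 and Mtor passed in 3134 (with the block Deptor too, an mTOR inhibitor, at 0.51 ± 0.269 with an adjusted p of 0.0266 against 0.857 without), where Mtor rose by 0.77 ± 0.134 (adjusted p = 0.00939, but 0.107 and 0.167 without replicate 1 or replicate 2 of 3134 at 0 h). The Mtor contrast was -0.70 ± 0.19 (adjusted p = 0.205, but 0.0482 with the run as a block and 0.0179 with the mean over probesets).

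For Pcdh17, 3 of 8 other non-clustered protocadherins with a value were tested, and none passed in either response or in the contrast. Pcdh1 was bright in AtT-20 only (6.83 at 0 h), and Pcdh7 (8.28) and Pcdh18 (8.93) were bright in 3134 only. With the run as a block, Pcdh18 passed in 3134 (adjusted p = 0.00964). Of 12 genes for the WAVE complex and the Ena/VASP proteins, which protocadherins of this kind recruit, none passed in either response (AtT-20 median -0.04). For Cables1, 0 of 21 partners and cell cycle relatives passed in AtT-20 (median -0.05, range -0.36 to 0.07), and its paralog Cables2 differed by -0.02 ± 0.162. Cdkn1a, a cyclin-dependent kinase inhibitor, rose in 3134 by 1.31 ± 0.16 (adjusted p = 0.000804) against -0.03 ± 0.16 in AtT-20, where it already stood at 11.60 at 0 h. Its contrast of -1.34 ± 0.227 passed (adjusted p = 0.0192), but not in the 4 fits that each left out 1 of the 0 h arrays, which gave adjusted p of 0.0738 to 0.141. Wee1, the kinase that Cables1 links to Cdk2, differed by -0.36 ± 0.344 in AtT-20 (adjusted p = 1) and by 0.70 ± 0.344 in 3134 (adjusted p = 0.752, and 0.00477 with the block), with a contrast of -1.06 (0.903, and 0.00487 with the block).

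For Mdm1, 0 of 23 other centriole genes passed in either response, with AtT-20 values from -0.17 to 0.31 and a median of 0.01. For Spats2l, 0 of 18 stress granule genes passed in either response. Its paralog Spats2 was bright in both lines (10.51 in AtT-20 and 10.32 in 3134 at 0 h) and differed by -0.29 ± 0.156 in AtT-20 (adjusted p = 1). Over the 6 lists of relatives and partners, limma called Sgk1 and no other gene in the AtT-20 response, with and without the run as a block, beside 0.181% of all tested genes. In the 3134 response, 2 of the 12 mTORC2 genes, 1 of the 3 protocadherins, 1 of the 21 partners of Cables1 and 0 of the WAVE, centriole and stress granule genes had an unadjusted p under 0.05, as had 733 of all 9926 tested genes. In the AtT-20 response such a p was found for 1 of the 12 mTORC2 genes (Sgk1), 1 of the 12 WAVE and Ena/VASP genes and 0 in each of the other 4 lists, beside 339 of 9926.

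Genes with courses like those of the 5 were ranked by Pearson correlation over 11 differences, each a treated array minus the 0 h array of its line and run, among 701 genes with at least 1 such difference of 1 or more. These 11 points share 4 arrays at 0 h and fall into a group per line, so the correlation mainly reports a line difference and is given as a description. Nearest to Arhgef3 were the mitochondrial carrier genes Slc25a32 (r = 0.984) and Slc25a25 (0.977), with AtT-20 responses of 1.39 ± 0.213 and 1.12 ± 0.164 and 3134 responses of -0.10 and 0.11, and then Cxcl5 (0.974). Cxcl5, a neutrophil chemokine, had the opposite sign and line: its response was -2.73 ± 0.252 in 3134 and 0.07 in AtT-20. Nearest to Mdm1 were Arhgef3 and Cables1 (0.968 each) and Cxcl5 (0.968). Over the 5 AtT-20 differences alone, Mdm1 correlated with Arhgef3 at 0.29 and with Cables1 at 0.56. Nearest to Cables1 were Noct (0.986), a clock-linked gene with responses of 1.27 ± 0.298 in AtT-20 and -0.44 in 3134, Phlda1 (0.971; 0.10 and -1.72) and Mdm1 (0.968). For Pcdh17 they were Hes1 (0.969; -0.10 and -1.04), Tat (0.962; 1.46 and 0.04), which encodes tyrosine aminotransferase, and Vwf (0.957; 0.87 and 0.02). For Spats2l the nearest, Ddit4 (0.905), Orm2 (0.883) and Spaca3 (0.862), were less alike, and the response of Ddit4 was positive in both lines (1.08 and 2.09). Of the genes nearest to the 4 with higher levels, Slc25a32, Slc25a25, Noct, Tat and Vwf thus shared a positive AtT-20 response with a small or negative one in 3134, and Cxcl5, Phlda1 and Hes1 were instead lower in 3134.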

How the data were processed

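The deposited values are log2 signals, 1 per exon probeset and array, made by the authors with RMA in Affymetrix Expression Console, per the submitters' processing notes. The versions and the genome build were not given in the sources used here. Column medians were not common (7.51 to 8.14 in run 1, 6.76 to 7.22 in run 2), so the 15 arrays were quantile normalized. Array files give no counts, and the number of arrays limits the precision.

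Of 228090 probesets, 207232 had 1 gene symbol in the platform annotation (3882 several, 16976 none). Of 16207 symbols, 14055 were current in RefSeq (GRCm38.p6), 2092 were updated through synonyms and 60 kept. A gene's value was the median over at least 3 probesets. Genes whose highest group mean reached the 40th percentile were fitted with limma 3.58.1 (lmFit, eBayes) in R 4.3.3 with the package data.table (version 1.17.8), as 8 group means with 7 residual degrees of freedom. P-values are 2-sided, with Benjamini-Hochberg adjustment over all genes and a threshold of 0.05. Every adjusted p is from limma. Unequal movement of probesets was tested with diffSplice on 146465 probesets of 12463 genes. The fits were also run on simulated data, with noise drawn separately for each array and so without shared run effects. The outcome is not reported here. Alternatives were the deposited scale, centred arrays, the run as a block, no filter on dim genes, and the mean or the bright probesets only. An F test among probesets was another. Each array except the lone AtT-20 array at 8 h was also left out in turn, for the comparisons that use its group.

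The 5 genes and all lists were chosen with earlier results of these data known. Besides them, the text names Fkbp5, Per1, Tsc22d3, Sgk1, Nr3c1, the markers, list genes that passed, close relatives in sequence, and the 3 genes most alike in course. Wee1 was named after its values were seen. Some results that the rule would name are not reported here.

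The runs were taken to pair the arrays. Deviations from group means correlated at 0.556 to 0.59 over 3 pairs of AtT-20 arrays of the same run and at 0.492 to 0.569 over 6 pairs of 3134 arrays. Over genes, no 2 arrays correlated above 0.992, and each counted as a sample of its own.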

Additional observations from a re-analysis of the deposited data

Results flagged for a closer look

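The contrast of responses, AtT-20 minus 3134 for the mean of 2 and 4 h against 0 h, passed limma's test for 3 of the genes set beside the AtT-20 group, and for each of these 3 the response was smaller in AtT-20. It was -1.95 for the receptor chaperone gene Fkbp5 (adjusted p = 0.000543), -1.38 for the clock gene Per1 (adjusted p = 0.0125) and -1.34 for the kinase inhibitor gene Cdkn1a (adjusted p = 0.0192). None of these 3 calls held in every fit, as given above and in the next section. All treated arrays at 2 and 4 h share the 0 h arrays of their line. No group held enough arrays for a check of single outlying arrays.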

How the results depend on the processing

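No called value changed direction under the alternatives run. Single genes followed through all of them were the 5 genes, Fkbp5, Per1, Tsc22d3, Sgk1, Nr3c1, Mtor and Cdkn1a. Other single genes, Pdgfrb among them, were followed with and without the block only. The AtT-20 response to dexamethasone ranged, over 7 alternatives, from 2.35 to 2.81 for Arhgef3, 2.27 to 2.40 for Mdm1, 1.53 to 1.66 for Pcdh17, 1.79 to 1.99 for Cables1 and -0.79 to -0.51 for Spats2l, with the mean over probesets giving the smallest size for Arhgef3 and Spats2l. Counts of calls moved more, and the cause was not tested. On the deposited scale, where runs differ in level, limma gave 0 calls in the AtT-20 response (18 in the reported fit), 19 in the 3134 response (206), 3 in the contrast (64), 0 between 2 and 8 h in 3134 (9), 1982 between the lines at 0 h (5413), and 0 and 1060 in the probeset tests of the AtT-20 response (56) and of the lines at 0 h (3292). At an unadjusted p under 0.05, the counts behind these 0 calls were 16, 19 and 27. Centred arrays gave 11 in the AtT-20 response and 2 between 2 and 8 h. With the run as a replicate block there were 75, 479 and 271 in the responses and contrast, 2 between 2 and 4 h in AtT-20 (0), 197 between 2 and 8 h, and 532 and 6116 in the probeset tests. Among the single genes named, the block changed the calls given beside their results. It brought others under the threshold too, among them Cdkn1a between 2 and 8 h in 3134 and Sgk1 between the lines at 0 h. The contrast of Pdgfrb was another (adjusted p = 0.301 without and 0.0364 with the block). The deposited scale with the block gave 36 in the AtT-20 response, 143 in the contrast, 1 between 2 and 4 h, 260 between 2 and 8 h and 123 in the probeset test in AtT-20. There the 3134 calls split into 140 higher and 154 lower (150 and 56 in the reported fit), those between 2 and 8 h into 29 and 231 (6 and 3), those of the contrast into 61 and 82 (15 and 49) and those between the lines into 2124 and 3339 (3002 and 2411), while the median of all genes shifted to -0.195, -0.305 and -0.221 in the first, second and last. Without a filter the contrast gave 40 and the 2 to 8 h comparison 1, and with the mean over probesets the counts were 32 in the AtT-20 response, 137 in the contrast and 76 between 2 and 8 h. In the probeset test of the AtT-20 response, the F test gave 17, own spreads 1 and own spreads with the block 0. Leaving out 1 array gave 6 to 21 in the AtT-20 response, 80 to 164 in the 3134 response, 23 to 53 in the contrast, 0 between 2 and 4 h, 0 to 5 between 2 and 8 h, 4425 to 4820 between the lines, and 16 to 981 and 2141 to 3998 in the probeset tests. A group left with 1 array was assumed to vary like the others. On the deposited scale without the block, the AtT-20 calls of Fkbp5, Per1 and Sgk1, the 3134 calls of Cdkn1a, Mtor, Sgk1 and Nr3c1 and all contrasts named did not pass. With the block on that scale, those of Fkbp5 in AtT-20 (adjusted p = 0.134) and Mtor in 3134 (0.207) did not pass, nor did Fkbp5 in AtT-20 with centred arrays (0.0669). Without the filter on dim genes, the contrast of Cdkn1a did not pass (adjusted p = 0.0506). Low signal limits the gene medians of Arhgef3 and Pcdh17 in AtT-20 at 0 h and of Cables1 and Spats2l in 3134.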
